A study of Homo sapiens with 3 samples.

Results

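The Mediator complex was followed through the single guide RNAs (sgRNAs) against its 33 genes in a pooled CRISPR knockout screen for HLA-B, a classical MHC class I (MHC-I) molecule. An sgRNA was taken as a Mediator sgRNA when its name began with 1 of the 33 subunit symbols followed by an Ensembl gene identifier. This gave 306 of 189398 gene-targeting sgRNAs and 33 of 20381 targeted genes. The rule itself used no measured value, though the complex was chosen with earlier results of these data known. All 33 identifiers matched a protein-coding gene of GENCODE release 44 lifted to GRCh37. The sgRNA numbers in the names run up to 10 a gene, and 20 members had all 10 in at least 1 library. The other 13 had fewer, down to 4 for MED26.

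K562 is an established human leukaemia cell line with little MHC-I at its surface. All cells expressed Cas9, were infected with the lentiviral sgRNA library at a multiplicity of 0.3 and were kept in puromycin (1 μg/mL) for 72 h from 48 h after infection onwards. The HLA-B high sort came from cells with the most surface HLA-B, taken by flow sorting on days 18 and 25 after 24 h of interferon-γ (IFN-γ) at 1 ng/mL. The high-screen pool held the unsorted cells of that screen. The low-screen pool held the unsorted cells of a screen for cells with low MHC-I, which used 25 ng/mL IFN-γ for 24 h and sorts on days 7 and 15. The labels do not give the harvest day of either pool, and the sources differ on whether the low screen used an HLA-B or an HLA-ABC antibody. Each group was 1 library, so there was no replicate spread to hold a difference against, and no difference was tested between conditions.

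The libraries held 34266318 (HLA-B high sort), 22562241 (high-screen pool) and 98426251 (low-screen pool) matched reads, and 1 read was worth 0.0292, 0.0443 and 0.0102 RPM (reads scaled to a common total of matched reads). Only 49.6% of the sgRNAs listed in any library were present in the sort, against 97.7% in the high-screen pool and 93.4% in the low-screen pool. As a check of the sort, 26 of 32 measured sgRNAs against EZH2, EED, SUZ12 and MEN1 had a log2 ratio above 1 to the high-screen pool, and 3 of these 4 genes met the call rule given below. These genes were chosen with their enrichment in this sort known.

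Mediator carries signals from DNA-bound transcription factors to RNA polymerase II at promoters. Its head and middle modules contact the polymerase and the general factors, the tail receives many activators, and MED14 runs through the complex as its scaffold. A separable kinase module, made of CDK8 or its paralog CDK19, cyclin C (CCNC), MED12 or MED12L and MED13 or MED13L, binds this core reversibly and can hold back or aid transcription. The core is needed for growth in most cell types, whereas many lines grow without the kinase module. For the counts below the subunits were divided into head (7 genes), middle (9), scaffold (1), tail (9) and kinase (7), with MED27 to MED30 placed in the tail.

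The log2 ratio of an sgRNA was its count in the first library over that in the second, after scaling to the same depth and adding 1 read. It was taken where the control had at least 10 reads, or where either pool did when the pools were compared. Genes were scored by redundant siRNA activity (RSA), which ranks all sgRNAs together, computes a hypergeometric p at each rank a gene holds and keeps the smallest. The call rule asked for 4 or more sgRNAs up to the best rank and for an RSA p under 0.001. With 1 library per group the RSA p is a rank score over the sgRNAs of a gene: 22.4% of 20314 genes had a value under 0.05 for enrichment in the sort over the high-screen pool and 22.7% for depletion.

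No Mediator subunit met the call rule in the HLA-B high sort, and most of the complex lay near or slightly under the level of all genes. Cyclin C was the member with the highest median ratio to the high-screen pool and MED31 the one with the highest ratio to the low-screen pool. MED20 and MED26 had 1 and 0 sorted reads over their 10 and 4 listed sgRNAs, where 50.8% of all gene-targeting sgRNAs had none. The share of all genes with so few sorted reads was not counted.

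By RSA, 0 of 33 members were called enriched and 0 depleted over the high-screen pool, where 0.532% and 0.418% of 20314 genes were called. Over the low-screen pool 0 and 0 of 33 were called, where 0.645% and 0.586% of 20295 genes were. At an RSA p under 0.05, 8 members scored for enrichment and 7 for depletion over the high-screen pool. Over the low-screen pool these counts were 4 and 12 of 33, where 22.4% and 22.8% of all genes reached that score. Both comparisons use the same sorted library, so they are not separate evidence.

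Of 268 measured Mediator sgRNAs, 29 had a log2 ratio above 1 over the high-screen pool, or 10.8% (exact Clopper-Pearson 95% interval 7.37 to 15.2%). The share was 12.6% of 174244 gene-targeting sgRNAs and 11.7% of safe-targeting sgRNAs, which cut genomic sites of no known function. Over the low-screen pool 32 of 274 Mediator sgRNAs (11.7%, 8.13 to 16.1%) were above 1, against 13.2% of gene-targeting sgRNAs. Both shares contain the background in their interval. The intervals cover counting over sgRNAs only, and sgRNAs of a gene share their target.

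Absence from the sort was a little more common for Mediator than for other genes. Of the 268 sgRNAs measured in the high-screen pool, 149 were not listed in the sorted library (55.6%, 49.4 to 61.6%), against 48.5% of gene-targeting and 47.6% of safe-targeting sgRNAs. The share was 44.4% in the kinase module (28 of 63, 31.9 to 57.5%) and 59.0% in the head, middle, scaffold and tail together (121 of 205, 52.0 to 65.8%). The 2 intervals overlap and the difference was not tested. For 31 general transcription factors (TBP and the subunits of TFIIA, TFIIB, TFIID, TFIIE, TFIIF and TFIIH), which start transcription with Mediator, the share was 62.8% (157 of 250, 56.5 to 68.8%), and for 13 genes of the 20S proteasome it was 80.8%. Mediator, these factors and the proteasome also had fewer reads per sgRNA in the pools, as given below, and the part of that in the absence from the sort was not tested.

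The median of the gene medians was -4.96 over the high-screen pool for Mediator and -4.54 for all genes, with 23 of 33 members below the all-gene median. Over the low-screen pool the medians were -6.51 and -5.62, again with 23 of 33 below. The size of these values comes largely from unlisted sgRNAs, whose ratio is set by their control count and the added read. With every sgRNA at no fewer than 3 sorted reads, the medians over the high-screen pool were -3.52 for Mediator, -3.21 for the kinase module and -3.24 for all genes. The plot of sgRNA ratios in the sort shows the members side by side.

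**Figure D1:**
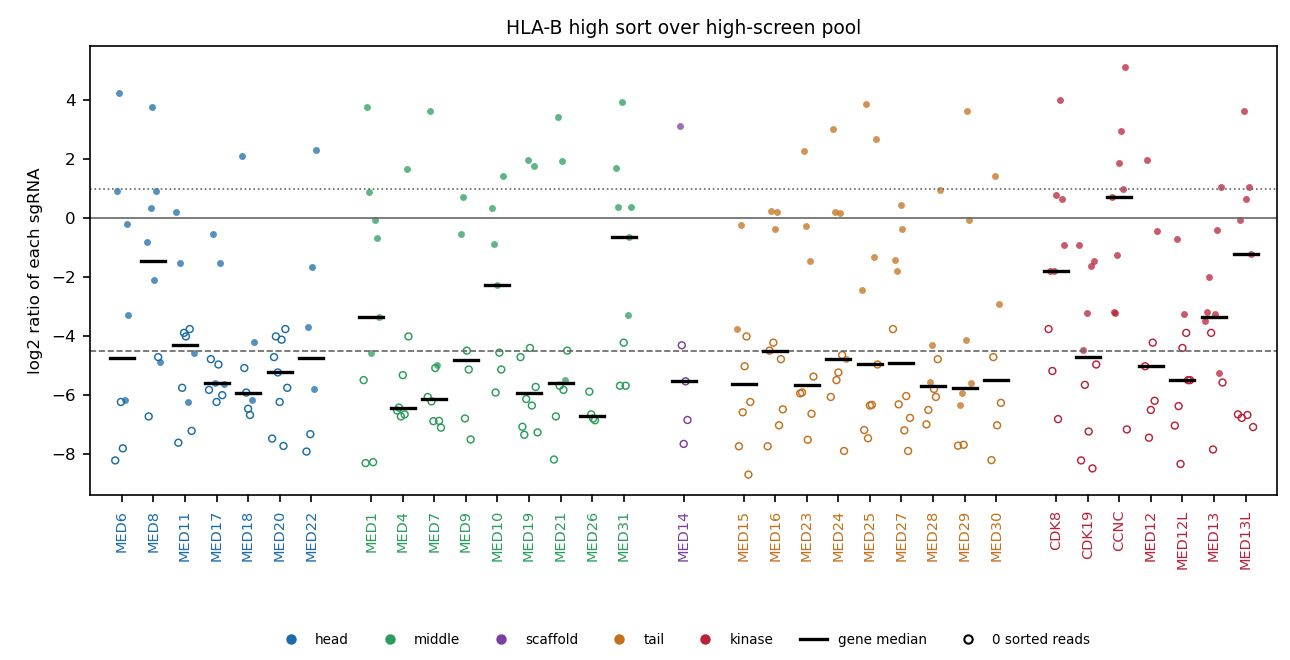
Log2 ratio of each measured Mediator sgRNA in the HLA-B high sort over the high-screen pool (vertical axis), by subunit and module (horizontal axis), where open points had 0 sorted reads, black bars are gene medians, the dashed line is the safe-targeting median (-4.49), and the solid and dotted lines mark 0 and 1. CCNC is the only member whose median lies above 0 (0.70), where 2.81% of all 20314 genes have such a median, and 22 members have at least 1 sgRNA above 1, where 66.4% of all genes do.

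In the kinase module the members spread widely. CCNC encodes cyclin C, the cyclin that activates CDK8 and CDK19, and lies at chromosome 6, 99990263 to 100016701 of GRCh37. CCNC sgRNAs 1, 2, 3, 4, 5, 6, 7, 8, 9 and 10 had, in that order, 50, 6, 9, 26, 894, 538, 0, 680, 6860 and 0 reads in the HLA-B high sort. CCNC counts in the high-screen pool were 20, 42, 62, 42, 160, 45, 8, 226, 128 and 113 reads. For CCNC the low-screen pool held 311, 394, 422, 622, 484, 839, 616, 506, 592 and 730 reads. Its sgRNAs 5, 6 and 9 were above a log2 ratio of 1 over the high-screen pool, and sgRNA 9 alone held 75.7% of its sorted reads. Of the 9 measured, 4 were below -1, so the sgRNAs of the gene lay on both sides.

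Summed over its sgRNAs, CCNC had 264 RPM in the HLA-B high sort, 37.5 in the high-screen pool and 56.0 in the low-screen pool. The ratio to the high-screen pool was 7.05 (exact interval 6.57 to 7.58) and that to the low-screen pool 4.72 (4.56 to 4.88). These intervals cover the counting of reads, and the reads are PCR copies without molecular identifiers. The median log2 ratio was 0.70 over the high-screen pool, at percentile 99.1 of all genes. Its RSA p for enrichment, a rank score, was 0.00556, at rank 720. Over the low-screen pool the median was -2.07, with 3 of 10 sgRNAs above 1. The RSA p there was 0.0243.

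CDK8, the kinase subunit (chromosome 13, 26828241 to 26995119), had 180 RPM in the HLA-B high sort, 37.2 in the high-screen pool and 48.8 in the low-screen pool. Its sgRNA 7 held 87.4% of the sorted reads, with 158 RPM there, 9.84 in the high-screen pool and 3.53 in the low-screen pool. That sgRNA was the only 1 of 9 above a ratio of 1 over the high-screen pool, and the gene median was -1.78, at percentile 83.2. The RSA p of CDK8 for enrichment was 0.0423. Its paralog CDK19, which can take the place of CDK8 in the module, had 7.70 RPM in the HLA-B high sort, 54.9 in the high-screen pool and 79.7 in the low-screen pool. No CDK19 sgRNA was above 1 in either comparison, 9 of 10 were below -1 over the high-screen pool, and the median was -4.72. The RSA p of CDK19 for depletion was 0.0227. Over the high-screen pool CDK19 therefore lay close to the all-gene median of -4.54, at percentile 46.6, and CDK8 above it. Over the low-screen pool CDK19 had a median of -7.66, at percentile 8.16, under the all-gene median of -5.62. CDK8 had -1.70 there, at percentile 85.5. The difference between the 2 genes was not tested.

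MED13 and its paralog MED13L tether the kinase module to the core. MED13L had 94.1 RPM in the HLA-B high sort, 40.9 in the high-screen pool and 67.1 in the low-screen pool, and its median ratios were -1.23 over the high-screen pool and -2.68 over the low-screen pool. Of its 9 sgRNAs measured in the high-screen pool, 2 were above 1 and 5 below -1. Its sgRNAs thus lay on both sides of 0, and those of MED13 mostly below it. MED13 sgRNAs 1, 2, 3, 4, 5, 6, 7, 8, 9 and 10 had, in that order, 21, 31, 152, 0, 0, 14, 212, 1, 167 and 0 reads in the HLA-B high sort. MED13 counts in the high-screen pool were 163, 191, 396, 11, 181, 94, 185, 55, 53 and 37 reads. For MED13 the low-screen pool held 647, 529, 1164, 294, 896, 340, 621, 357, 668 and 498 reads. MED13 was the most even of the kinase subunits in the sort: its largest sgRNA held 35.5% of the sorted reads, 8 of 10 were below -1, and the medians were -3.36 over the high-screen pool and -3.21 over the low-screen pool. Its summed reads were lower in the sort, at 17.5 RPM, than in the high-screen pool at 60.5 and the low-screen pool at 61.1.

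MED12 links cyclin C to MED13 and helps to activate the kinase, and MED12L is its paralog. MED12 had 14.9 RPM in the HLA-B high sort, 21.3 in the high-screen pool and 40.1 in the low-screen pool, with medians of -5.02 over the high-screen pool and -6.82 over the low-screen pool. Only sgRNAs 3 and 10 of MED12 had sorted reads (397 and 114), and the other 7 were not listed there. MED12L was as sparse in the sort. MED12L sgRNAs 1, 2, 3, 4, 5, 6, 7, 8, 9 and 10 had, in that order, 0, 0, 263, 0, 0, 0, 6, 0, 0 and 0 reads in the HLA-B high sort. MED12L counts in the high-screen pool were 103, 9, 282, 65, 254, 16, 44, 11, 35 and 35 reads. For MED12L the low-screen pool held 579, 210, 793, 0, 212, 67, 444, 149, 208 and 161 reads. For MED12L, sgRNA 3 held 97.8% of the sorted reads, 8 sgRNAs were not listed in the sort, and the medians were -5.49 over the high-screen pool and -6.78 over the low-screen pool.

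**Figure D2:**
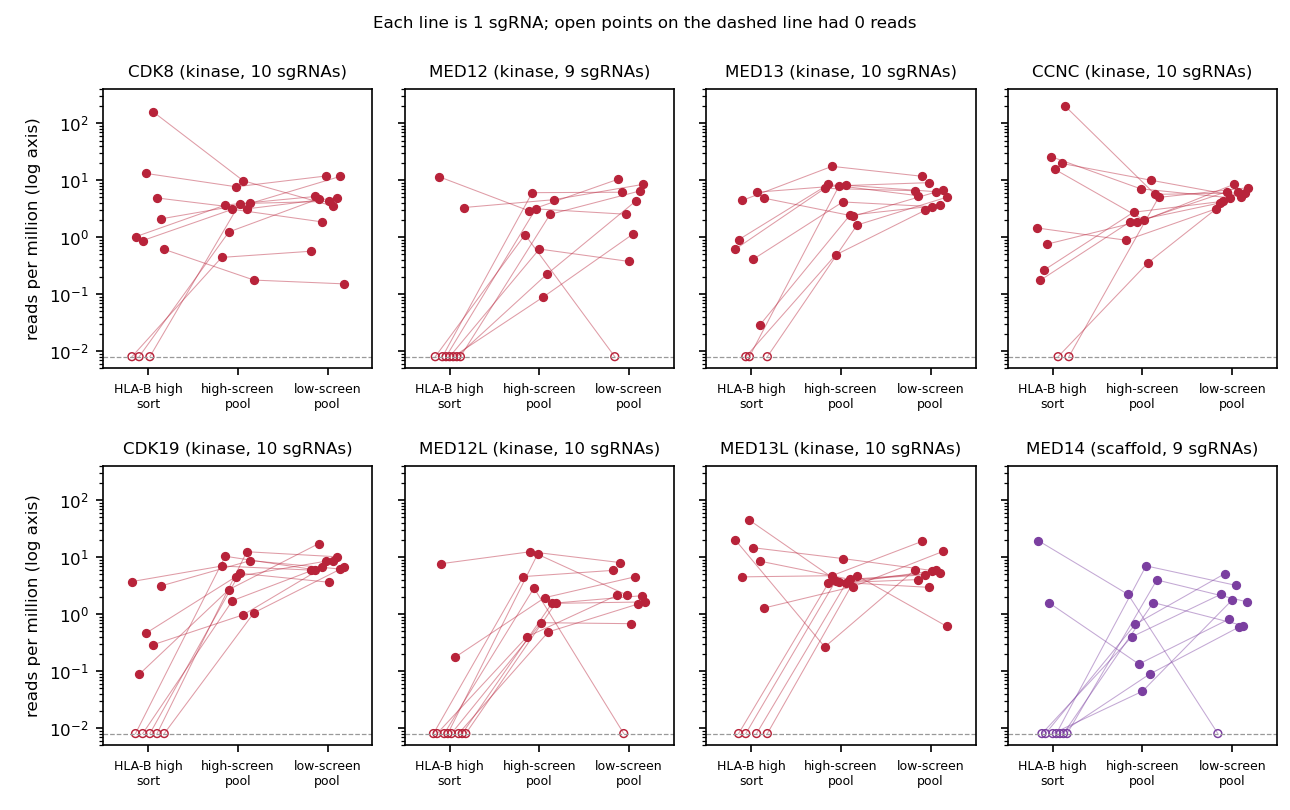
RPM (vertical log axis) of each sgRNA of the 7 kinase module genes and of the scaffold MED14 in the HLA-B high sort, the high-screen pool and the low-screen pool (horizontal axis). Each line joins the values of 1 sgRNA, and open points on the dashed line had 0 reads: sgRNA 9 of CCNC reached 200 RPM in the sort, while 8 of 10 MED12L sgRNAs had none.

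In the head, most members were near or under the level of all genes in the sort. MED8, which connects the MED18 and MED20 pair to the rest of the head, had the highest median of the 7. MED8 sgRNAs 1, 3, 5, 6, 7, 8, 9 and 10 had, in that order, 258, 0, 168, 3634, 48, 195, 0 and 7 reads in the HLA-B high sort. MED8 counts in the high-screen pool were 300, 83, 88, 175, 137, 67, 20 and 156 reads. For MED8 the low-screen pool held 564, 0, 200, 533, 1019, 0, 533 and 417 reads. The medians of MED8 were -1.45 over the high-screen pool and -1.24 over the low-screen pool. MED8 sgRNA 6 held 84.3% of the sorted reads and was the only 1 of 8 above a ratio of 1 over the high-screen pool. Its sgRNAs 3 and 9 had no sorted reads, and 4 of 8 were below -1.

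MED20, which forms a movable part of the head with MED18 (chromosome 6, 41873092 to 41888877), had almost no sorted reads. MED20 sgRNAs 1, 2, 3, 4, 5, 6, 7, 8, 9 and 10 had, in that order, 0, 0, 0, 0, 0, 0, 0, 0, 0 and 1 reads in the HLA-B high sort. MED20 counts in the high-screen pool were 140, 20, 12, 29, 59, 13, 167, 10, 42 and 0 reads. For MED20 the low-screen pool held 210, 149, 451, 0, 108, 63, 253, 62, 467 and 157 reads. A single sorted read came from sgRNA 10, which had none in the high-screen pool. The ratio of summed reads was 0.00134 over the high-screen pool (exact interval 3.38e-05 to 0.00749) and 0.00150 over the low-screen pool (3.79e-05 to 0.00835). All 9 measured sgRNAs were below -1 in each comparison. MED20 had the smallest RSA p of the members for depletion, 0.00550 at rank 759 over the high-screen pool and 0.00379 at rank 560 over the low-screen pool, and neither passed the threshold. Its counts in the high-screen pool were low, with a gene level at percentile 3.48 of all genes.

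The remaining head subunits had medians between -5.91 and -4.30 over the high-screen pool. They were MED6, the pair of MED11 and MED22 at the base of the head, MED17 (its central subunit) and MED18. MED18 was the lowest over the high-screen pool, at -5.91, had -6.64 over the low-screen pool, and 98.6% of its sorted reads came from 1 sgRNA. MED17 had medians of -5.59 over the high-screen pool and -7.73 over the low-screen pool, with no sgRNA above 1 in either comparison. MED6 had medians of -4.74 over the high-screen pool and -5.55 over the low-screen pool, and MED11 of -4.30 over the high-screen pool and -6.18 over the low-screen pool. MED22, the partner of MED11, had a single sgRNA that stood out. MED22 sgRNAs 1, 2, 3, 5, 6, 7 and 8 had, in that order, 0, 1, 0, 0, 4, 2 and 185 reads in the HLA-B high sort. MED22 counts in the high-screen pool were 190, 18, 126, 8, 10, 115 and 24 reads. For MED22 the low-screen pool held 588, 0, 570, 0, 2, 355 and 409 reads. MED22 sgRNA 8 held 96.4% of the sorted reads of that gene, and the medians of MED22 were -4.74 over the high-screen pool and -7.11 over the low-screen pool.

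The middle module held both a high member of the complex in the sort and the lowest ones over the high-screen pool. MED31, a small and highly conserved middle subunit (chromosome 17, 6546631 to 6554954), was the second highest of the 33 over the high-screen pool. MED31 sgRNAs 1, 2, 3, 4, 5, 7, 8, 9 and 10 had, in that order, 316, 245, 0, 1755, 0, 0, 26, 19 and 291 reads in the HLA-B high sort. MED31 counts in the high-screen pool were 63, 125, 40, 75, 14, 40, 173, 20 and 149 reads. For MED31 the low-screen pool held 361, 591, 222, 573, 0, 71, 759, 0 and 351 reads. MED31 sgRNAs 1 and 4 were above 1 over the high-screen pool, 4 of 9 were below -1, and sgRNA 4 held 66.2% of the sorted reads. Its medians were -0.64 over the high-screen pool and 0.25 over the low-screen pool, at percentiles 93.3 and 98.0. The RSA p for enrichment was 0.0130 over the high-screen pool and 0.0282 over the low-screen pool. The gene had 77.4 RPM in the HLA-B high sort, 31.0 in the high-screen pool and 29.7 in the low-screen pool.

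MED26, which binds elongation factors and is found in only part of Mediator complexes, had no sorted read. MED26 sgRNAs 4, 6, 8 and 10 had, in that order, 0, 0, 0 and 0 reads in the HLA-B high sort. MED26 counts in the high-screen pool were 46, 79, 87 and 91 reads. For MED26 the low-screen pool held 277, 301, 245 and 884 reads. Its ratio of summed reads was 0, with an upper exact limit of 0.00807 over the high-screen pool and 0.00621 over the low-screen pool, for counting error only. Only these 4 sgRNAs were listed in any library, and the RSA p for depletion was 0.0166 and 0.0113. MED4 pairs with MED9 in the middle module. MED4 sgRNAs 1, 2, 3, 4, 5, 6, 7, 8 and 10 had, in that order, 0, 0, 317, 0, 0, 0, 0, 74 and 0 reads in the HLA-B high sort. MED4 counts in the high-screen pool were 72, 67, 3, 0, 83, 31, 79, 15 and 12 reads. For MED4 the low-screen pool held 884, 457, 129, 60, 475, 157, 400, 953 and 0 reads. For MED4, 7 of 9 sgRNAs had no sorted reads, and sgRNA 3 held 81.1% of those there were. Its medians were -6.42 over the high-screen pool and -7.41 over the low-screen pool.

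MED1, the subunit bound by nuclear receptors and, in erythroid cells, by GATA1, was split between its sgRNAs. MED1 sgRNAs 1, 2, 3, 4, 5, 6, 7, 8, 9 and 10 had, in that order, 0, 0, 3328, 51, 0, 1, 0, 88, 156 and 1 reads in the HLA-B high sort. MED1 counts in the high-screen pool were 35, 250, 161, 18, 5, 34, 245, 61, 164 and 14 reads. For MED1 the low-screen pool held 0, 272, 256, 308, 445, 585, 247, 932, 947 and 74 reads. MED1 sgRNA 3 took 91.8% of the sorted reads and had a log2 ratio of 3.76 over the high-screen pool, while sgRNAs 2 and 7 had ratios of -8.30 and -8.27. These low values set its RSA p for depletion, 0.0134 with 2 sgRNAs at the best rank, and the median was -3.35. Over the low-screen pool its RSA p for depletion was 0.210.

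Among the other middle subunits MED10 had medians of -2.27 over the high-screen pool and -4.90 over the low-screen pool and MED9 of -4.81 over the high-screen pool and -5.71 over the low-screen pool. MED7 and MED21 form the hinge of the middle module, and their medians were -6.13 over the high-screen pool and -7.76 over the low-screen pool for MED7, and -5.59 over the high-screen pool and -6.51 over the low-screen pool for MED21. MED19, part of the hook that contacts the polymerase, had -5.93 over the high-screen pool and -7.27 over the low-screen pool, and 8 of its 10 sgRNAs had no sorted reads.

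MED14, the scaffold (chromosome X, 40507557 to 40595110), had sorted reads from 2 of its 9 sgRNAs. MED14 sgRNAs 1, 2, 3, 4, 5, 6, 8, 9 and 10 had, in that order, 667, 0, 0, 54, 0, 0, 0, 0 and 0 reads in the HLA-B high sort. MED14 counts in the high-screen pool were 50, 9, 15, 3, 1, 159, 2, 36 and 90 reads. For MED14 the low-screen pool held 0, 222, 509, 80, 175, 316, 59, 62 and 162 reads. MED14 sgRNA 1 held 92.5% of the sorted reads and was the only sgRNA of the gene with none in the low-screen pool. The medians were -5.53 over the high-screen pool and -6.84 over the low-screen pool, over 5 and 8 measured sgRNAs, since 4 fell short of 10 reads in the high-screen pool. The RSA p in the sort was 0.112 for enrichment and 0.218 for depletion over the high-screen pool.

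The tail held no subunit with a high median. Its 9 medians ran from -5.75 (MED29) to -4.49 (MED16) over the high-screen pool, and 8 of 9 were below the all-gene median. MED29 sgRNAs 1, 2, 3, 5, 6, 7, 8 and 9 had, in that order, 0, 2, 1, 0, 9, 847, 304 and 1 reads in the HLA-B high sort. MED29 counts in the high-screen pool were 166, 169, 87, 162, 116, 44, 210 and 69 reads. For MED29 the low-screen pool held 459, 286, 422, 440, 647, 142, 990 and 599 reads. MED29 sgRNA 7 held 72.8% of the sorted reads of the gene with a log2 ratio of 3.64 over the high-screen pool, and its medians were -5.75 over the high-screen pool and -5.96 over the low-screen pool. MED30 likewise rested on 1 sgRNA in the sort. MED30 sgRNAs 2, 3, 4, 5, 6, 7, 8, 9 and 10 had, in that order, 0, 2, 0, 0, 577, 0, 0, 2 and 0 reads in the HLA-B high sort. MED30 counts in the high-screen pool were 233, 4, 9, 20, 141, 8, 102, 15 and 60 reads. For MED30 the low-screen pool held 394, 71, 1, 0, 391, 293, 1246, 81 and 986 reads. MED30 sgRNA 6 held 99.3% of the sorted reads, and the medians were -5.48 over the high-screen pool and -7.63 over the low-screen pool. MED29 and MED30 lie where the tail meets the head.

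MED15, an activator-binding tail subunit that SREBP transcription factors use (chromosome 22, 20850200 to 20941919), had 1.37 RPM in the HLA-B high sort, 32.7 in the high-screen pool and 28.1 in the low-screen pool. Its ratio of summed reads to the high-screen pool was 0.0419 (0.0305 to 0.0563), with medians of -5.63 over the high-screen pool and -7.64 over the low-screen pool and an RSA p for depletion of 0.0455 and 0.0140. MED28, with 2.28 RPM in the sort, 20.4 in the high-screen pool and 36.9 in the low-screen pool, had medians of -5.68 over the high-screen pool and -7.84 over the low-screen pool. MED16 and MED24, which pack together in the tail, had medians of -4.49 over the high-screen pool and -6.50 over the low-screen pool for MED16, and -4.78 over the high-screen pool and -4.62 over the low-screen pool for MED24. For MED27, another subunit at the join of tail and head, they were -4.90 over the high-screen pool and -5.65 over the low-screen pool.

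MED23, a target of the growth-factor-responsive activator ELK1, had medians of -5.64 over the high-screen pool and -7.70 over the low-screen pool. MED25, the subunit bound by the viral activator VP16, had -4.96 over the high-screen pool and -6.20 over the low-screen pool, and 2 of its 9 measured sgRNAs were above 1 over the high-screen pool. Over the complex, 1 sgRNA held most of the sorted reads (over 50%) in 28 of 33 members, where that was so for 68.4% of all 20381 genes. In the sort 3 of 306 sgRNAs reached 100 RPM, 1 each of CCNC, CDK8 and MED8, and 31 reached 10. The shares of all gene-targeting sgRNAs at these levels were not counted, so the 2 counts are descriptions only.

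In the unsorted pools, where no HLA-B sort had acted, Mediator sgRNAs were on the whole less abundant than safe-targeting sgRNAs. The level of an sgRNA was taken as log2 of its RPM, with 1 read added, minus the median over safe-targeting sgRNAs of the same pool, and the level of a gene as the median over its listed sgRNAs. A gene was called low at -1 or less. sgRNA abundance before infection is not in the files, so a low level cannot be told apart from a low start in the library.

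The median level of the 33 members was -0.60 in the high-screen pool and -0.25 in the low-screen pool, against -0.02 and -0.10 for all genes. In the high-screen pool 29 of 33 members lay under the all-gene median and 7 were low (21.2%), where 11.3% of 20381 genes were low. In the low-screen pool 20 lay under the median and 7 were low (21.2%), where 12.2% of genes were. MED14 and MED20 were low in both, and 12 members were low in at least 1 pool. The shares of all genes low in both pools or in at least 1 were not counted, so these counts are descriptions only. With sgRNAs listed in both pools only, MED22, MED4 and MED15 were no longer low in the high-screen pool. That left 4 low members there, where 1822 of 20324 genes were low. Of the 20S proteasome, a complex that dividing cells need, 11 of 13 genes were low in the high-screen pool and 10 in the low-screen pool. Of the 31 general transcription factors 11 were low in the high-screen pool (35.5%) and 15 in the low-screen pool (48.4%). The Mediator shares lay between the shares of all genes and of both lists, and were not tested. Non-targeting sgRNAs, designed to cut nowhere, were at 0.82 and 0.60.

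Over the 33 members the levels in the high-screen and low-screen pools had a Pearson r of 0.48 and a Spearman rho of 0.54. Over 20381 genes these were 0.62 and 0.56. The points share the sgRNA library and so its starting abundances, and genes are not independent replicates. The plot of sgRNA levels shows both pools.

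**Figure D3:**
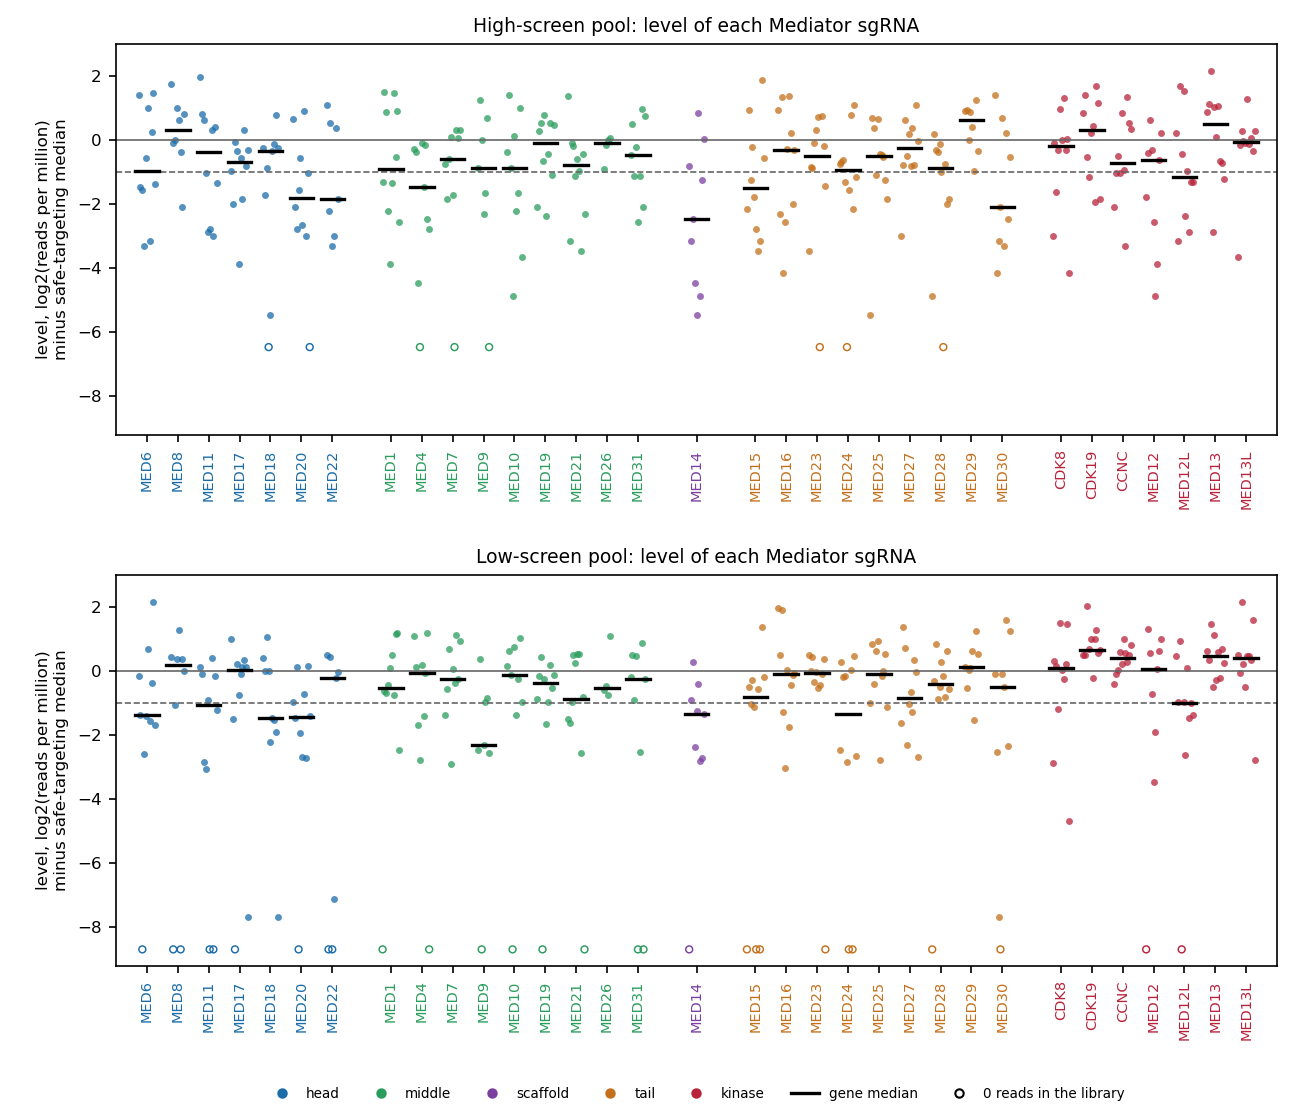
Level of each Mediator sgRNA (vertical axis, log2 RPM minus the safe-targeting median) in the high-screen pool (top) and the low-screen pool (bottom), by subunit and module, where black bars are gene medians, the solid line is 0, the dashed line is the limit for a low gene (-1) and open points had 0 reads. MED14 (-2.46) and MED20 (-1.81) lie under the limit in the high-screen pool and again in the low-screen pool (-1.34 and -1.43).

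The head was the module with the most low genes in the low-screen pool. There 4 of 7 were low, MED6 (-1.38), MED11 (-1.04), MED18 (-1.47) and MED20 (-1.43), and the module median was -1.04. With MED27 to MED30 placed in the head, 4 of 11 were low (36.4%) and the median was -0.49. With the mean over sgRNAs MED6 and MED18 were not low there, and MED8, MED17 and MED22 were. In the high-screen pool 2 of 7 were low, MED22 at -1.82 and MED20 at -1.81. MED22 was at -0.22 in the low-screen pool, and MED6, MED11 and MED18 were at -0.96, -0.36 and -0.33 in the high-screen pool. MED17 had levels of -0.67 in the high-screen pool and 0.03 in the low-screen pool. MED8 was the highest of the head in both pools, at 0.33 in the high-screen pool and 0.19 in the low-screen pool. Its sgRNAs 3 and 8 were not listed in the low-screen pool although they had 83 and 67 reads in the high-screen pool.

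In the middle module 1 of 9 genes was low in each pool. MED4 was low in the high-screen pool (-1.46) and at -0.05 in the low-screen pool, whereas MED9 was at -0.87 in the high-screen pool and -2.30 in the low-screen pool, the lowest member of that pool. The highest of the module in the high-screen pool was MED26, at -0.07 in the high-screen pool and -0.51 in the low-screen pool. MED19 was next, at -0.08 in the high-screen pool and -0.38 in the low-screen pool. The levels of MED1, MED7, MED10, MED21 and MED31 ran from -0.90 to -0.46 in the high-screen pool and from -0.88 to -0.13 in the low-screen pool.

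MED14 had the lowest level of the complex in the high-screen pool, -2.46, at percentile 1.83 of all genes, and -1.34 in the low-screen pool, at percentile 7.67. In each pool 6 of its 9 sgRNAs were at -1 or less. In the high-screen pool sgRNAs 4, 5 and 8 had 3, 1 and 2 reads, against 80, 175 and 59 in the deeper low-screen pool. MED14 is needed to hold head, middle and tail together.

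In the tail 2 of 9 genes were low in the high-screen pool, MED30 (-2.07) and MED15 (-1.50), and 1 in the low-screen pool, MED24 (-1.32). MED30 was at -0.49 and MED15 at -0.80 in the low-screen pool, and MED24 was at -0.93 in the high-screen pool. MED29 had the highest level of all 33 members in the high-screen pool, at 0.65 in the high-screen pool and 0.12 in the low-screen pool. MED15 lies on chromosome 22, and of the 20 targeted genes around it (10 on each side) 10 were low in the high-screen pool and 12 in the low-screen pool, where 11.3% and 12.2% of all genes were. Their part in the level of MED15 was not tested. MED16, MED23, MED25, MED27 and MED28 were between -0.87 and -0.25 in the high-screen pool and between -0.84 and -0.05 in the low-screen pool.

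The kinase module had the highest median level of the modules. It was -0.18 in the high-screen pool and 0.41 in the low-screen pool, with 1 of 7 genes low in the high-screen pool and 0 of 7 in the low-screen pool. The low gene was MED12L, at -1.13 in the high-screen pool and -0.98 in the low-screen pool. MED13 was highest in the high-screen pool, at 0.50 in the high-screen pool and 0.47 in the low-screen pool, and CDK19 highest in the low-screen pool, at 0.34 in the high-screen pool and 0.68 in the low-screen pool. CDK8 had levels of -0.18 in the high-screen pool and 0.10 in the low-screen pool, and MED13L of -0.05 in the high-screen pool and 0.41 in the low-screen pool. CCNC was at -0.71 in the high-screen pool and 0.41 in the low-screen pool, and MED12 at -0.60 in the high-screen pool and 0.07 in the low-screen pool. Of the 69 kinase sgRNAs, 31.9% were at -1 or less in the high-screen pool and 15.9% in the low-screen pool, against 41.4% and 36.7% of the 237 sgRNAs of the other modules. In all gene-targeting sgRNAs the shares were 27.7% and 28.1%.

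Some sgRNAs were missing from a pool altogether. In the high-screen pool 8 Mediator sgRNAs from 8 members were not listed (2.61%), against 2.28% of all gene-targeting sgRNAs. In the low-screen pool, 28 from 21 members were not listed (9.15%), against 6.60% of all gene-targeting sgRNAs, 16.6% of those against the general transcription factors and 24.6% of those against the 20S proteasome. Of those 28, 24 had 10 or more reads in the high-screen pool. The module shares in the low-screen pool were 14.1% for the head (9 of 64), 10.4% for the middle (8 of 77), 9.20% for the tail (8 of 87) and 2.90% for the kinase module (2 of 69).

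The pools were set against each other to see how far Mediator sgRNAs differed between screens without a sort. MED14 was the 1 member called by RSA, as depleted in the high-screen pool over the low-screen pool. In 11 of 33 members at least 2 sgRNAs were above a log2 ratio of 1 and at least 2 below -1, where 39.1% of all genes had this. Of Mediator sgRNAs 30.9% were below -1 and 21.6% above 1, against 23.7% and 22.6% of gene-targeting sgRNAs.

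By RSA 1 of 33 members was called depleted and 0 enriched in the high-screen pool over the low-screen pool, where 0.733% and 0.831% of 20341 genes were called. At an RSA p under 0.05 there were 16 members for depletion and 5 for enrichment, where 23.5% and 23.9% of all genes reached that score. The median of the gene medians was -0.33 for Mediator and -0.02 for all genes, with 22 of 33 members below the all-gene median. Of 301 measured Mediator sgRNAs, 93 had a log2 ratio below -1 (30.9%, 25.7 to 36.5%), against 23.7% of 184715 gene-targeting sgRNAs. Another 65 were above 1 (21.6%, 17.1 to 26.7%), against 22.6%. Together 52.5% of Mediator sgRNAs differed by more than 1 on the log2 scale, against 46.3% of all gene-targeting and 34.2% of non-targeting sgRNAs.

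The shares of sgRNAs above 1 and below -1 varied between the modules. In the head 22 of 63 were above 1 (34.9%, 23.3 to 48.0%) and 15 below -1 (23.8%). With MED27 to MED30 placed in the head, these shares were closer to each other, at 30.6% and 27.6%. In the kinase module 5 of 69 were above 1 (7.25%, 2.39 to 16.1%) and 24 below -1 (34.8%). The middle and the tail were between them, with 19.7% and 22.6% above 1 and 30.3% and 31.0% below -1. Above 1 were 22.6% of all gene-targeting sgRNAs, 30.8% of those against the general transcription factors and 38.2% of those against the 20S proteasome. The difference between head and kinase module was not tested. The intervals count sgRNAs within 1 pair of libraries, and sgRNAs of a gene share their target, so they do not test the modules against each other. Of the 22 head values above 1, 8 are sgRNAs not listed in the low-screen pool, such as MED8 sgRNAs 3 and 8 at 7.80 and 7.50. Of the 5 kinase values above 1, 2 were likewise not listed in the low-screen pool, MED12 sgRNA 1 at 6.09 and MED12L sgRNA 4 at 7.45.

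**Figure D4:**
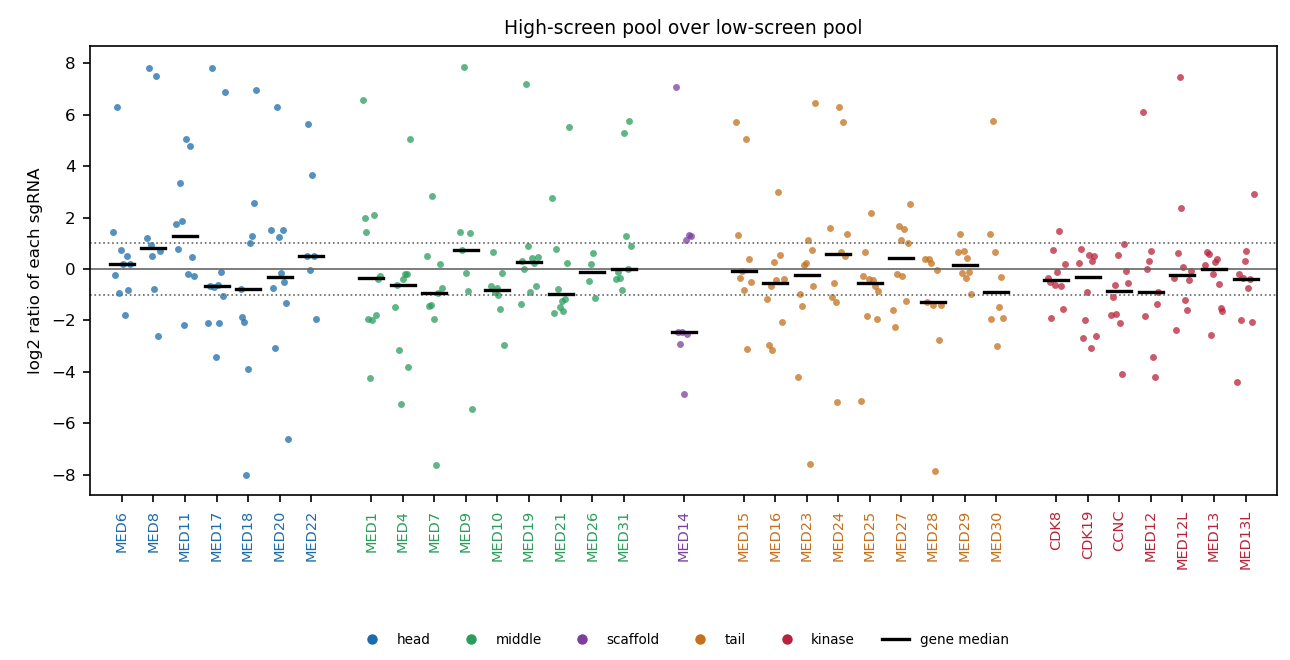
Log2 ratio of each measured Mediator sgRNA in the high-screen pool over the low-screen pool (vertical axis), by subunit and module (horizontal axis), where black bars are gene medians, the solid line marks 0 and the dotted lines mark 1 and -1. MED14 has the lowest median (-2.45) with 5 sgRNAs below -1 and 4 above 1, and MED11 the highest (1.27).

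MED14 was called with an RSA p of 1.46e-04, at rank 44. Of its sgRNAs, 5 lay at or before the best rank. Its 9 log2 ratios, for sgRNAs 1, 2, 3, 4, 5, 6, 8, 9 and 10, were 7.08, -2.45, -2.93, -2.47, -4.88, 1.13, -2.55, 1.32 and 1.27. Of these 5 were below -1 and the other 4 above 1, with none between. The median was -2.45, at percentile 0.251 of all genes. Summed reads did not show this difference: MED14 had 16.2 RPM in the high-screen pool and 16.1 in the low-screen pool, a ratio of 1.00 (0.894 to 1.13). The sgRNA at 7.08 was sgRNA 1, not listed in the low-screen pool.

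By the second rule, a gene median at least 1 above or below the safe-targeting median with at least 4 measured sgRNAs, 1 of 33 members was higher and 2 were lower in the high-screen pool. Among 19637 genes 6.02% were higher and 2.59% lower. The higher member was MED11, whose median was 1.27 and which had 5 of 10 sgRNAs above 1. MED11 sgRNAs 1, 2, 3, 4, 5, 6, 7, 8, 9 and 10 had, in that order, 612, 0, 71, 0, 0, 0, 1, 0, 0 and 1 reads in the HLA-B high sort. MED11 counts in the high-screen pool were 348, 154, 135, 42, 11, 12, 109, 10, 117 and 34 reads. For MED11 the low-screen pool held 451, 389, 57, 49, 223, 0, 552, 0, 370 and 179 reads. Its sgRNAs 6 and 8, with 12 and 10 reads in the high-screen pool and 0 in the low-screen pool, were at 5.05 and 4.80. MED8, with a median of 0.82 and 0.98 above the safe-targeting median, was just short of the limit. With a minimum of 50 reads MED8 was the 1 higher member and MED11 was not called, where 877 of 19552 genes were higher.

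The lower members were MED14 and MED28, which joins the tail to the head and had a median of -1.27. MED28 sgRNAs 1, 2, 3, 4, 5, 6, 7, 8, 9 and 10 had, in that order, 0, 0, 0, 1, 5, 0, 0, 0, 0 and 72 reads in the HLA-B high sort. MED28 counts in the high-screen pool were 2, 100, 71, 68, 80, 43, 0, 52, 21 and 24 reads. For MED28 the low-screen pool held 0, 338, 749, 229, 294, 500, 376, 236, 634 and 279 reads. For MED28, 5 of 9 measured sgRNAs were below -1 and 0 above 1, and the summed ratio was 0.553 (0.501 to 0.610). MED28 sgRNA 7 had 0 reads in the high-screen pool and 376 in the low-screen pool. The RSA p of MED28 for depletion was 0.0138. With no minimum count MED28 was no longer lower by the fold rule, and with the mean over sgRNAs MED14 was not.

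In all 11 members had at least 2 sgRNAs above 1 and at least 2 below -1 between the pools, where 39.1% of 20341 genes had. MED18 was such a gene, with 4 of 9 above 1 and 4 below -1, as was MED1, with 4 of 10 each way. In 6 members no sgRNA was above 1, and in 2, MED29 and MED31, none was below -1. The shares of all genes with such a pattern were not counted. The kinase genes had medians from -0.90 (MED12) to -0.02 (MED13), and CCNC had -0.87 with 5 of 10 sgRNAs below -1 and 0 above 1. The remaining medians were 0.19 for MED6, -0.68 for MED17, -0.80 for MED18, -0.32 for MED20 and 0.50 for MED22 in the head. In the middle they ran from -0.98 (MED21) to 0.74 (MED9), and in the tail, MED28 aside, from -0.89 (MED30) to 0.58 (MED24).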

How the data were processed

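K562 cells of a pooled knockout screen were read in 3 libraries, 1 per group. Each deposited file lists whole-number counts of reads by sgRNA, not normalized by the authors. According to the study's methods, constant sequence was clipped from reads with fastx clipper or cutadapt, reads were aligned by Bowtie2 to the sgRNA sequences, and those that aligned to several were dropped. Besides these, the processing notes of the submitters name bcl2fastq. Tool versions are not given in the sources used here. Reads matched to no sgRNA (21.9% in the HLA-B high sort, 20.6% in the high-screen pool and 12.1% in the low-screen pool) were left out. An sgRNA missing from a library was given 0 reads. The other sorted libraries of the study were not analysed here. The sgRNA sequences and cut sites were not used here.

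The scripts ran under scipy 1.17.1, numpy 2.4.6 and pandas 2.3.3 (Python 3.11.15), and matplotlib 3.10.9 drew the figures. Counts were brought to a common depth by matched reads. RSA was run over all measured sgRNAs, controls included, from each end, was tested on simulated data, and was printed for Mediator only. Intervals for shares are exact Clopper-Pearson at 95%, and those for ratios of summed reads come from the same interval of the share of reads in 1 library. The module lists, comparison lists and the Mediator members were chosen with earlier results of these data known. Counts of every sgRNA are given for members called by RSA, for the lowest and highest level of each module in the high-screen pool and for the 2 smallest RSA p in each direction of the sort over that control. MED11 and MED28 were added after their values were seen. Alternatives changed the scaling, the pseudocount, the minimum count, the call rule, the summary over sgRNAs, the reference of the level and the placing of MED27 to MED30. The proteasome list had 14 symbols, of which 13 were found, and a read-through locus under the symbol PSMA1 was left out. The list of general transcription factors was taken from a longer list after its values were seen, and the rest of that list is not reported here.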

Additional observations from a re-analysis of the deposited data

How the results depend on the processing

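With 1 library per group no library could be left out and no spread between replicates measured. No paired analysis was possible because each group is a single library. Of 136 alternative values over 28 results, 126 kept their call or stayed within 1.5 times the count, or within the counting interval of the share. In the sort 0 members were called in either direction under every alternative tried. For depletion this says little, since the rank of an sgRNA not listed in the sort is set by its control count. MED14 was the 1 member called between the pools under every alternative, with RSA p between 1.71e-05 and 5.88e-04. The rule that the best-ranked sgRNA lie on the right side of 0 was chosen after seeing the data and changed no member.

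Counts by the fold rule and of low members moved. With the mean over sgRNAs 4 members were higher and 4 lower, without MED14 among them, where 2570 and 1262 of 19637 genes were. With no minimum count 1 was lower (MED14), where 455 of 19740 genes were. With a minimum of 50 reads 4 were lower and MED8 in place of MED11 was higher, where 591 and 877 of 19552 genes were. At that minimum the share of Mediator sgRNAs above 1 between the pools was 16.4%, against 19.7% of all gene-targeting sgRNAs. Low members numbered 25 of 33 in the high-screen pool and 14 in the low-screen pool relative to non-targeting sgRNAs, where 8294 and 6585 of 20381 genes were low. They were 4 in the high-screen pool (MED20, MED14, MED30 and MED12L) with sgRNAs listed in both pools only, where 1822 of 20324 genes were. With the mean they were 12 in the low-screen pool, where 4045 of 20381 genes were low. With MED27 to MED30 in the head, 1 tail gene was low in the high-screen pool. The cause of these shifts was not tested.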
